A study of Mus musculus with 2 samples.

Results

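Imprinted genes were followed across 4 cell classes of the mouse yolk sac at stage E8.75. Of 45 imprinted genes named for this purpose, 43 had a row among the 30970 gene rows of the count tables, 24 of them known as paternally expressed and 19 as maternally expressed. Rian and Nespas were not analysed here. All cells came from yolk sacs of genotype Ttr-Cre/+; R26lsl-rtTA-EGFP/+, in which Cre is driven by the promoter of transthyretin, a gene of visceral endoderm, and switches on a reporter and transactivator at the Rosa26 locus. Cells of 3 samples carried sample tags (CellPlex oligonucleotides) and were pooled for 10x single-cell sequencing, and no group lacked Cre or carried another genotype. The tagged samples served as replicates. Each held cells with Xist RNA (181, 259 and 217 cells with at least 4 Xist UMIs and at most 1 Y-linked UMI) and cells with Y-linked RNA (150, 177 and 344 cells with at least 2 Y-linked UMIs and at most 1 of Xist), so how many embryos each one came from is not known, while the series' own text names 3 in all. The p-values below therefore measure only the spread between tagged samples.

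An imprinted gene is transcribed mainly from the allele of a single parent, in many cases because DNA methylation set in the egg or sperm persists at a control region nearby. Many imprinted genes act on fetal and placental growth, and paternally expressed genes such as Igf2 often promote growth while maternally expressed genes such as Cdkn1c, Phlda2, Grb10 and Igf2r often restrain it. The yolk sac joins an outer layer of visceral endoderm, which takes up and secretes nutrients, to an inner extraembryonic mesoderm that gives rise to endothelium and to primitive red cells. The counts do not tell alleles apart. "Paternally" and "maternally expressed" are thus names from textbook knowledge, and for 15 of the 43 genes (Ddc, Gab1, Sfmbt2, Inpp5f, Grb10, Ube3a, Gnas, Dcn, Tfpi2, Cd81, Tssc4, Osbpl5, Ppp1r9a, Asb4 and H13) imprinting is known only in some tissues or transcripts.

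Cells were kept from 500 detected genes and up to a mitochondrial share of 10% of their UMIs (unique molecular identifiers, 1 per captured RNA molecule). They were assigned to a class by the share of their UMIs in a few lineage genes, none of them imprinted members. Endoderm needed 0.3% in Ttr, Apob and Apom, erythroid cells 3% in 7 globins, endothelium 0.04% in Cdh5, Ctla2a and Plvap, and mesoderm 0.03% in Hand1, Vcan and Foxf1. Of 1817 cells this gave 559 endoderm, 199 mesoderm, 115 endothelium and 629 erythroid cells, while 188 met no threshold, 50 met 2 or more and 77 failed the cell filter. Independent markers followed the class names: 12 endoderm markers (Afp, Apoa1, Cubn and others) summed to 19740 to 25586 CPM in endoderm (UMIs per 1000000 UMIs of all genes in a class sum, the scale of every level below) and at most 744 elsewhere, and 10 mesoderm markers to 656 to 1021 in mesoderm and at most 87.2 elsewhere. Sums of 10 markers each for endothelium (1622 to 1836, at most 162 elsewhere) and erythroid cells (1830 to 2185, at most 282 elsewhere) did the same. The 12 class sums held between 1250024 and 16784528 UMIs, with medians of 34959 UMIs per mesoderm cell and 56338 per endoderm cell, and no cell barcode occurred in more than 1 tagged sample. Near the thresholds, 60 of the 223 cells over the mesoderm limit lay below double that limit, the closest cells having 0.03003% inside and 0.02991% outside.

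Several members carry microRNAs in their transcripts, and the mature sequences of a few are shown to identify what these host genes carry. In the RefSeq miRNA table for GRCm38.p6, 37 mature miRNAs lay on the strand of 6 members, 26 of them inside Mirg. Capitals mark the seed, bases 2 to 8, which pairs with target mRNAs. One seed was held by 2 of the 37 miRNAs, miR-453 and miR-496a-5p of Mirg. The first 4 lines are from Mest (intron), H19 (exon), Igf2 (intron) and Meg3 (exon), and the last 2 are the Mirg pair. The mature miRNAs themselves were not measured by this assay.
miR-335-5p: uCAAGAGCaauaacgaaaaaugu
miR-675-5p: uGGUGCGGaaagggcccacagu
miR-483-3p: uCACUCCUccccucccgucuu
miR-770-5p: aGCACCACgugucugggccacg
miR-453: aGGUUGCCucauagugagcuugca
miR-496a-5p: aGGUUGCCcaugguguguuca

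The windows before the start sites of Mest, Meg3 and Peg3 are shown because these genes differed between classes in unlike ways while each starts near a control region. Each holds the 250 bases before a RefSeq start (GRCm38.p6): Mest at chr6:30737800-30738049, plus strand, Meg3 at chr12:109540746-109540995, plus strand, and Peg3 at chr7:6730420-6730669, minus strand, written 5′ to 3′. Capitals mark TGCCGC or its reverse complement GCGGCA, the hexamer bound by ZFP57, the zinc finger protein that protects methylated imprints. It occurred in 20.3% of the 59 windows of 300 bases of 37 members and in 11.6% of 32851 windows of all genes, counting both strands. The hexamer contains CG, and windows of members held a median of 13 CG dinucleotides against 7 in all windows. The part of this in the 2 percentages was not tested. Windows of 1 gene overlap, and a match is only a description of the letters.
Mest: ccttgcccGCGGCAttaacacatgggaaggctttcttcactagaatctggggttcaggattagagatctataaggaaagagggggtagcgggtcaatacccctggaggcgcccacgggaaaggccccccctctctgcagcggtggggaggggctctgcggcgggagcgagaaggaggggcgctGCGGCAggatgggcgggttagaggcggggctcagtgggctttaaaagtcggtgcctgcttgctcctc
Meg3: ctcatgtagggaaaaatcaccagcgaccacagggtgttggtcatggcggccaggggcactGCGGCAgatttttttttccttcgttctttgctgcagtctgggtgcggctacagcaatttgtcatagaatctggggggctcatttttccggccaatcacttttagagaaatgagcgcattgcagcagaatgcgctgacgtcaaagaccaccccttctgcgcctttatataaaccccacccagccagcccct
Peg3: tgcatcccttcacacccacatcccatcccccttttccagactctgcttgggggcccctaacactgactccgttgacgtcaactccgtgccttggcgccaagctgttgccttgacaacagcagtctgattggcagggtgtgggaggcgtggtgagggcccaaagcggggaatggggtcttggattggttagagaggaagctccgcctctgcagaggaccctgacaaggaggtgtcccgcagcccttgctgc
The Mest window held 2 matches, the Meg3 window 1 and the Peg3 window none. In GENCODE M21, Usp29 starts inside the Peg3 window on the opposite strand, 147 bases from the GENCODE start of Peg3. The RefSeq start that placed the window differs from that start.

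Mesoderm was the class with the highest mean level for 24 of the 43 members, and erythroid cells the class with the lowest for 27. Endoderm was highest for 10 members, endothelium for 7 and erythroid cells for 2. These ranks use CPM, scaled by library size only, and the share of all genes with the same ranks was not counted. On that scale all genes leaned the same way. Their median log2 difference in mesoderm was 0.22 over endoderm, 0.13 over endothelium and 0.45 over erythroid cells, and -0.27 in erythroid cells against endoderm. Under edgeR, 10 of the 37 members tested against all 3 other classes were higher in endoderm than in each of them (Peg10, Ddc, Impact, Gab1, Sfmbt2, Inpp5f, Dio3, Cdkn1c, Phlda2 and Slc22a18), or 27.0% against 20.7% of all genes so tested. In mesoderm 10 of 35 were (Igf2, Dlk1, Peg3, Usp29, Nnat, Plagl1, Snrpn, Mirg, Zim1 and Dcn), or 28.6% against 8.72% of all genes. Endothelium stood above all others for Mest, Cd81 and Ppp1r9a (9.09% of 33 members, near the 11.6% of all genes), and erythroid cells for Kcnq1ot1, Mcts2 and Ube3a (9.09% of 33 against 21.8%). Of the erythroid trio, the order against mesoderm held for Mcts2 only: scaled by library size, Kcnq1ot1 differed by -0.05 (mesoderm minus erythroid, adjusted p = 0.554) and Ube3a was 0.11 higher in mesoderm (adjusted p = 0.176). Its difference from endothelium was then lost too (endothelium minus erythroid -0.11, adjusted p = 0.252). Lower than all 3 others were 17 members in erythroid cells (51.5%, against 17.5% of all genes), 6 in endoderm (Snrpn, Ndn, Grb10, Ube3a, Gnas and Tssc4; 16.2% against 10.7%) and 1, Gab1, in mesoderm (2.86%, near the 3.38% of all genes). Some of these places rested on a single tagged sample: against endothelium, the low endoderm values of Ube3a were lost without sample 3 (adjusted p = 0.175) and those of Tssc4 without sample 1 (adjusted p = 0.0563), and the low erythroid value of Phlda2 without sample 1 (adjusted p = 0.997) or 3 (adjusted p = 0.0556). High places were affected too. Cdkn1c, Phlda2 and Gab1 in endoderm and Usp29, Plagl1 and Mirg in mesoderm each lost a needed call when 1 tagged sample was left out.

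**Figure D1:**
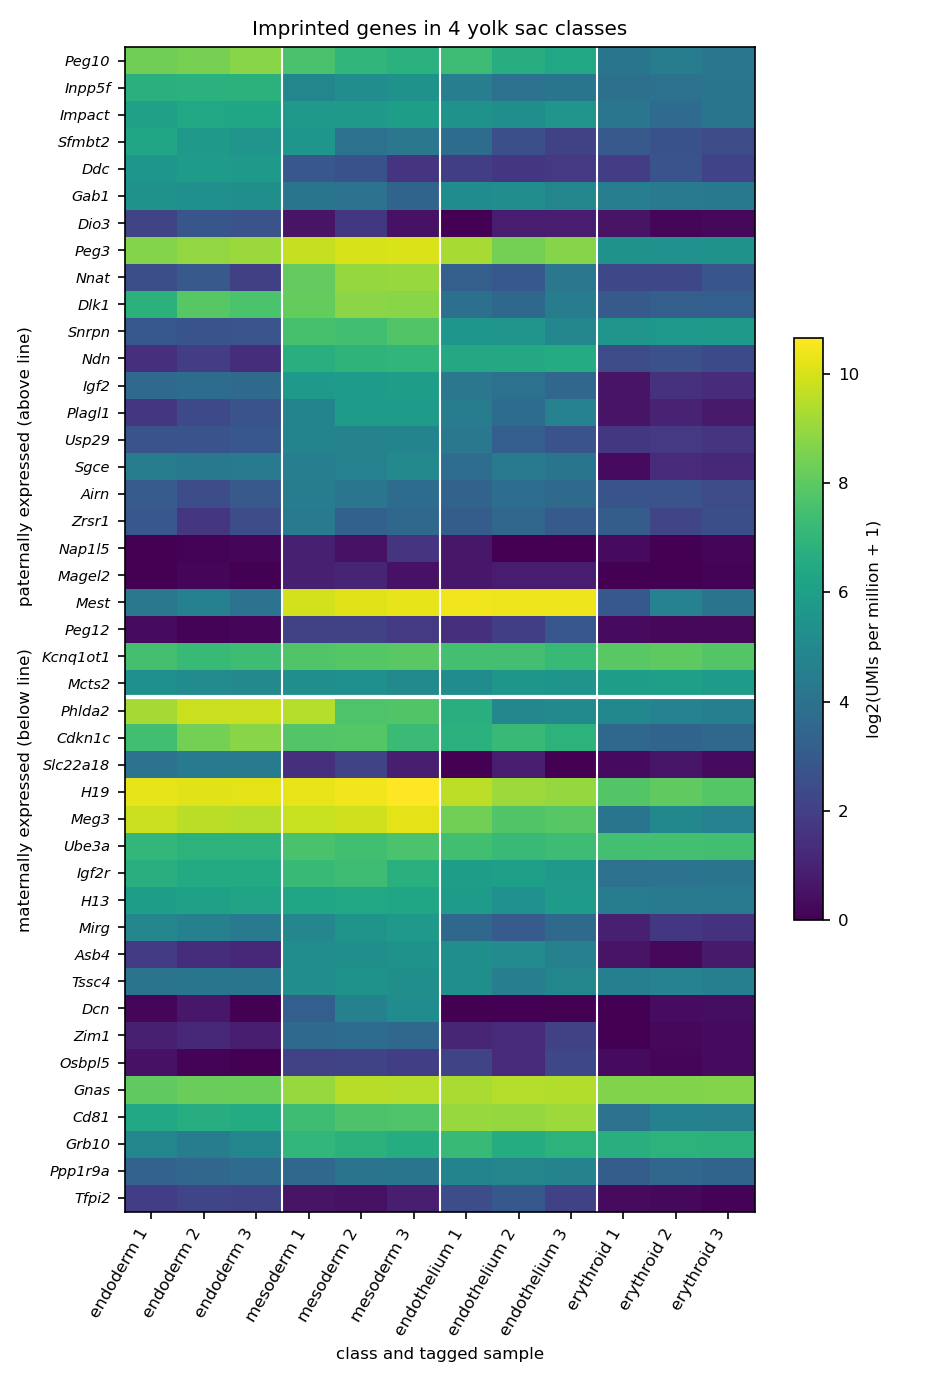
Heat map of 43 imprinted genes (rows, paternally expressed above the white line and maternally expressed below it, each grouped by the class with the highest mean) in 12 class sums (columns, 4 classes with tagged samples 1 to 3), coloured by log2(CPM + 1). By class mean, mesoderm columns are the brightest for 24 rows and erythroid columns the darkest for 27, without a share of all genes beside these counts.

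The members together made up 0.782% to 0.904% of all UMIs in mesoderm, 0.513% to 0.577% in endoderm, 0.494% to 0.573% in endothelium and 0.154% to 0.167% in erythroid cells. Paternally expressed members summed to 1648 ± 136 CPM in endoderm (SD, n = 3), 3947 ± 478 in mesoderm, 2472 ± 211 in endothelium and 520 ± 25.8 in erythroid cells. Maternally expressed members summed to 3840 ± 190 in endoderm, 4510 ± 195 in mesoderm, 2731 ± 243 in endothelium and 1075 ± 45.1 in erythroid cells. Both sums were thus highest in mesoderm and lowest in erythroid cells, with no overlap between these classes and the others. On this library size scale the median gene was also 0.22 higher in mesoderm than in endoderm in log2. The 2 largest maternal members of mesoderm, H19 and Meg3, did not differ from endoderm under edgeR (adjusted p = 0.91 and 0.418). The maternal excess of mesoderm over endoderm is therefore not shown to be particular to the members. The maternal share of member UMIs was 70.8%, 69.6% and 69.5% in the endoderm of tagged samples 1, 2 and 3, and 66.9%, 67.1% and 68.1% in erythroid cells. It was 56.5%, 51.4% and 52.4% in mesoderm and 52.6%, 52.5% and 52.4% in endothelium. Endoderm and erythroid samples therefore all lay above every mesoderm and endothelium sample. Of the erythroid maternal sum of 1075 CPM, however, Gnas held a mean of 399, Ube3a 173 and Grb10 111. Imprinting of these genes is known only in some tissues or transcripts. Shares without such members were not computed, so the order of the classes in the remaining members is not given by these values. Of the exonic bases of Igf2, a paternally expressed member, 62.8% are shared with a second gene. Its reads may have gone uncounted, and the effect on these shares and on the paternal sums was not tested. Few genes set these sums: the 3 most abundant members (H19, Meg3 and Phlda2 in endoderm, Gnas, H19 and Kcnq1ot1 in erythroid cells) held 48.6% to 55.4% of member UMIs in those classes. Globins took 6.34% to 8.88% of erythroid UMIs, and leaving them out of the total moved the erythroid sums to 564 and 1167.

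**Figure D2:**
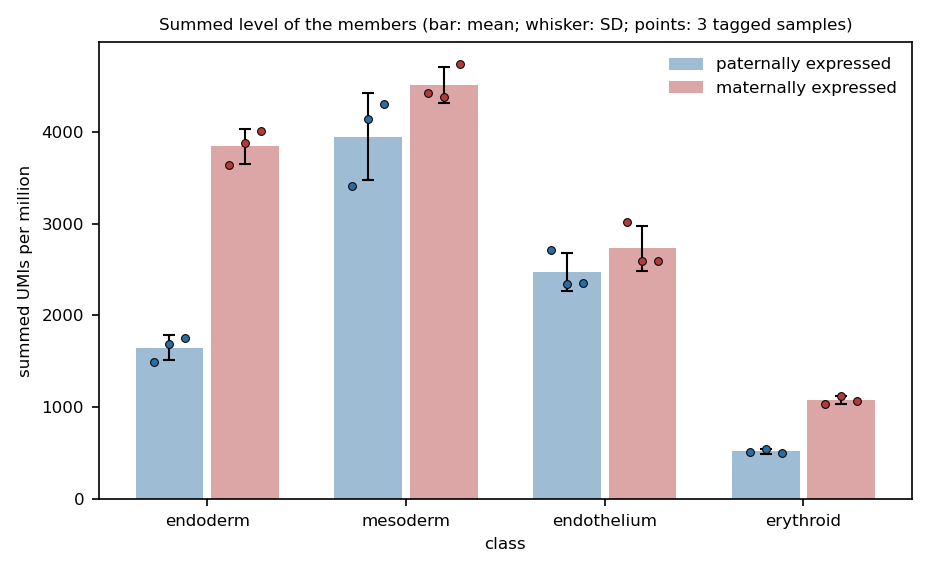
Summed CPM of paternally expressed (blue) and maternally expressed (red) members by class, with bars for the mean of 3 tagged samples, whiskers for the SD and points for each sample. Paternal sums run from 520 in erythroid cells to 3947 in mesoderm, and maternal sums from 1075 to 4510.

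Each pair of classes was compared on counts summed per tagged sample, with edgeR's quasi-likelihood test, Benjamini-Hochberg adjustment over all genes tested and an adjusted p under 0.05 as the limit. Against endoderm, mesoderm was higher for 23 and lower for 11 of 41 members tested (56.1% and 26.8%, with 30.6% and 33.2% of all genes tested called higher and lower). The median log2 difference was 0.52 over these members and -0.02 over all genes. Paternally expressed members were higher for 13 and lower for 7 of 22, and maternally expressed members for 10 and 4 of 19. Magel2 and Nap1l5 had too few UMIs to be tested in any comparison. The members tested were more abundant than most genes, with a median of 42.7 CPM over the sums of these 2 classes against 19.3 for all genes tested, which affects how readily a difference is called.

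Endothelium was higher than endoderm for 12 and lower for 16 of 37 members tested (all genes: 28.6% and 31.9%), a split close to that of all genes, with a median log2 difference of -0.10 against -0.05. Erythroid cells were higher than endoderm for 8 and lower for 24 of 37 (all genes: 36.1% and 41.8%), with a median of -2.08 against -0.05. The 8 higher members were Snrpn, Grb10, Ndn, Mcts2, Kcnq1ot1, Tssc4, Ube3a and Gnas. In mesoderm against endothelium, 19 members were higher and 4 lower of 35 (all genes: 15.9% and 19.5%), and the 4 lower ones were Cd81, Gab1, Ppp1r9a and Mest. Against erythroid cells, mesoderm was higher for 30 and lower for 5 of 37 members (all genes: 37.6% and 33.2%), with a median of 2.69 against 0.03. Endothelium was higher than erythroid cells for 23 and lower for 4 of 33 (all genes: 34.2% and 31.9%), with a median of 1.03 against -0.03. Comparisons that have a class in common use the same sums and are not independent of each other. Scaled by library size rather than TMM, the median of all genes moved to 0.22 in mesoderm against endoderm, 0.13 against endothelium and 0.45 against erythroid cells, to 0.28 in endothelium against erythroid cells and to -0.27 in erythroid cells against endoderm. The share of all calls that were higher then went from 48.0% to 62.4% in mesoderm against endoderm, from 44.9% to 58.0% against endothelium, from 53.1% to 76.0% against erythroid cells and from 51.7% to 69.6% in endothelium against erythroid cells, while members were called higher and lower 27 and 10, 21 and 4, 31 and 2, and 24 and 2 times.

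**Figure D3:**
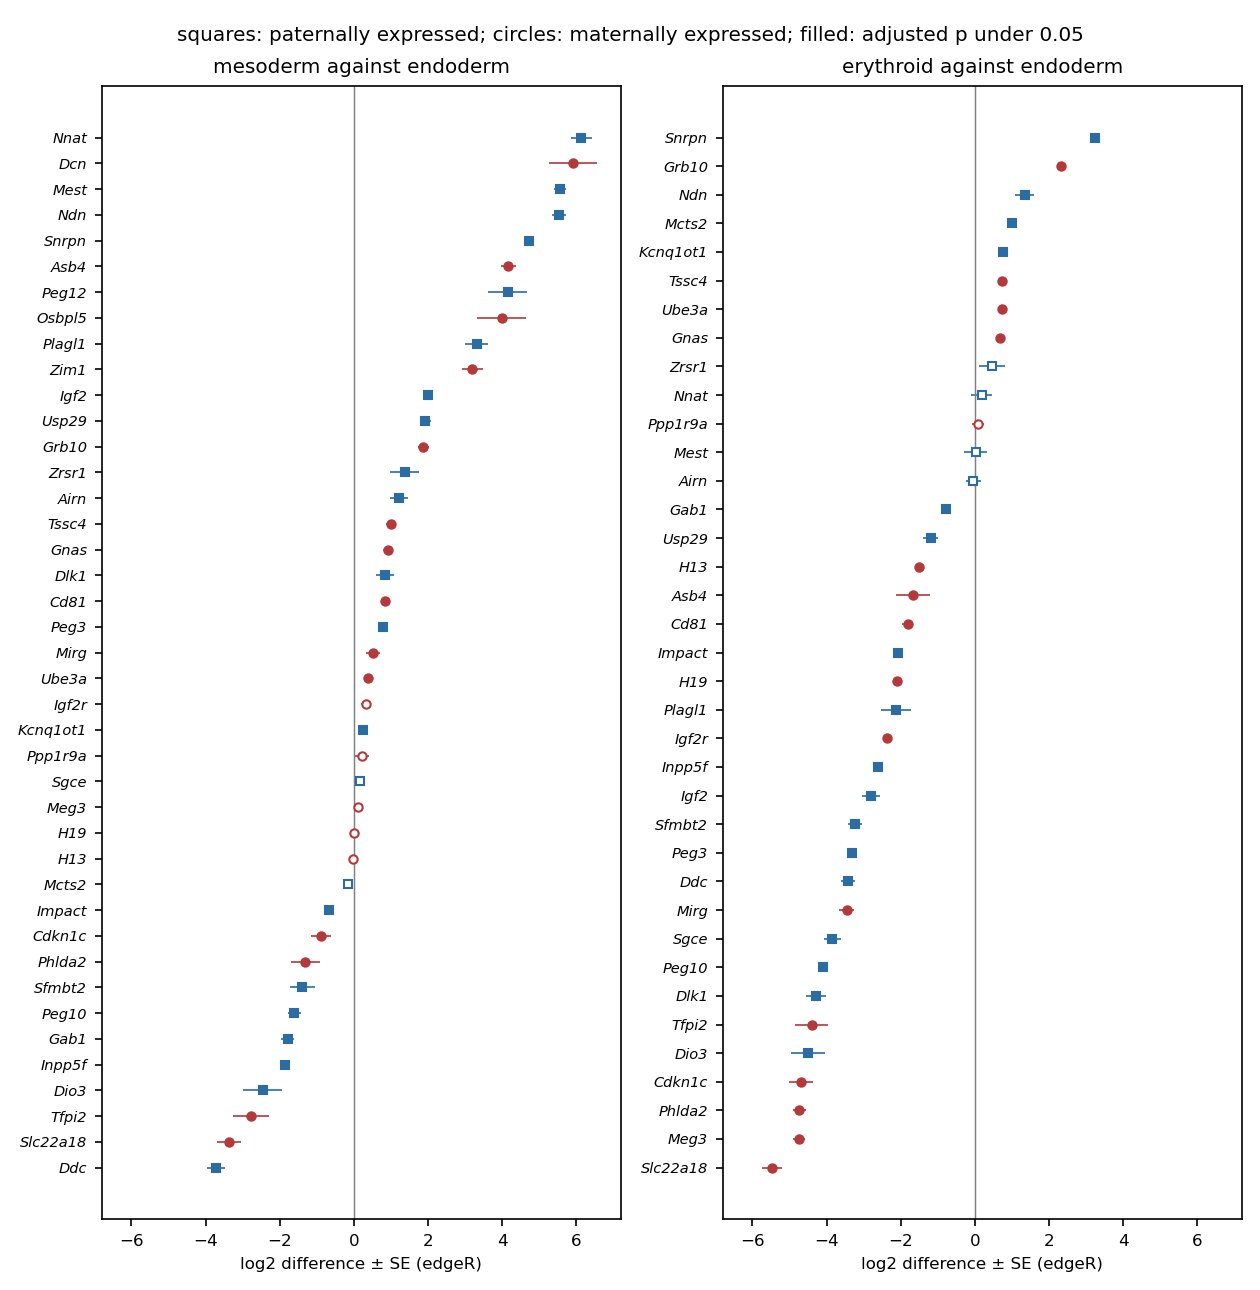
Log2 difference ± SE from edgeR (horizontal axis) for each member tested (vertical axis), in mesoderm against endoderm at left and erythroid cells against endoderm at right, with squares for paternally and circles for maternally expressed members, filled where the adjusted p was under 0.05. At left 23 members are called higher and 11 lower, at right 8 and 24.

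By position, 32 members lay in 8 regions that hold 2 or more members within 2500000 bases of each other, and 11 lay alone (GENCODE M21, GRCm38). The largest region, chr7:142575529-143756985, holds 9 members: H19, Igf2, Cd81, Tssc4, Kcnq1ot1, Cdkn1c, Slc22a18, Phlda2 and Osbpl5. H19, a maternally expressed long noncoding RNA transcribed beside Igf2, was the most abundant member. It stood at 1211, 1139 and 1195 CPM in endoderm, at 1261, 1361 and 1604 in mesoderm, at 765, 544 and 494 in endothelium and at 220, 265 and 228 in erythroid cells. Mesoderm and endoderm did not differ past the limit (log2 difference 0.01 ± 0.08 SE, adjusted p = 0.91), although every mesoderm sample lay above every endoderm sample in CPM. Endothelium differed from endoderm by -1.09 ± 0.13 (adjusted p = 7.28e-06) and erythroid cells by -2.10 ± 0.08 (adjusted p = 3.07e-10).

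Igf2, the paternally expressed growth factor next to H19, was counted at far lower values: 11.5, 12.8 and 11.9 in endoderm, 52.3, 57.6 and 62.3 in mesoderm, 17.8, 14.7 and 10.4 in endothelium and 0.463, 1.87 and 1.55 in erythroid cells. Every mesoderm sample lay above every other one, and mesoderm exceeded endoderm by 2.0 ± 0.12 (adjusted p = 1.03e-07) and endothelium by 1.85 ± 0.19 (adjusted p = 8.78e-06). Of the exonic bases of Igf2, 62.8% are shared on the same strand with Gm49394, a second gene of the count tables, so reads there may have gone uncounted, and the part of this in the low level was not tested. H19 and Igf2 thus took unlike orders: the difference between mesoderm and endoderm passed the limit in Igf2 and not in H19, and endothelium was below endoderm in H19 only.

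Kcnq1ot1, the paternally expressed RNA that silences its neighbours in cis, varied little: 183, 150 and 160 in endoderm, 218, 231 and 245 in mesoderm, 177, 176 and 148 in endothelium and 242, 256 and 223 in erythroid cells. It overlaps Kcnq1 on the opposite strand, and no source used here says whether counting used the strand, but Kcnq1 itself was near 0 in every class. Erythroid cells exceeded endoderm by 0.77 ± 0.08 (adjusted p = 1.99e-06). The mesoderm excess over endoderm, 0.26 ± 0.08 (adjusted p = 0.0167), did not hold without tagged sample 2 (adjusted p = 0.151) or 3 (adjusted p = 0.171).

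A group of 3 maternally expressed neighbours of Kcnq1ot1 were highest in endoderm. Phlda2, which restrains placental growth, stood at 601, 888 and 892 in endoderm, at 709, 211 and 216 in mesoderm, at 106, 29.4 and 33.6 in endothelium and at 30.1, 25.6 and 23.4 in erythroid cells. Tagged sample 1 was the highest of the mesoderm and the endothelium values and the lowest of endoderm, so endoderm and mesoderm overlapped. Mesoderm minus endoderm was -1.31 ± 0.39 in log2 (adjusted p = 0.0121), and without tagged sample 2 or 3 the call was lost (adjusted p = 0.102 and 0.0906), as it was with DESeq2 (adjusted p = 0.086). Erythroid cells differed from endoderm by -4.74 ± 0.17 (adjusted p = 3.45e-10).

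The sum of 3 trophoblast genes in mesoderm was, like Phlda2, highest in tagged sample 1. From sample 2 to 3 that sum fell while Phlda2 did not. Elf5, Tfap2c and Rhox9 summed to 52.8, 25.7 and 14 CPM in the mesoderm of tagged samples 1, 2 and 3 and to at most 8.90 in any other class. The whole list of 12 trophoblast markers summed to 40.7 to 107 in mesoderm, 66.5 to 83.3 in endoderm, 54.6 to 71.2 in endothelium and 5.72 to 8.80 in erythroid cells, and Prl3d1, Prl2c2, Prl7a1 and Cts7 were at 0 in all 12 sums. In the mesoderm class, 9, 5 and 2 cells had at least 0.01% of their UMIs in those 3 genes, and they held Hand1 at 433 to 446 but Foxf1 at 0. Their Phlda2 stood at 1987, 711 and 1322, against 395, 180 and 160 in the other mesoderm cells. Without cells of this kind in all classes, mesoderm minus endoderm was -1.93 ± 0.28 (adjusted p = 7.29e-05), and this alternative was chosen after the data had been seen.

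Cdkn1c, the cyclin-dependent kinase inhibitor p57Kip2, stood at 172.5, 345 and 427 in endoderm, 224, 229.5 and 152 in mesoderm, 111, 145 and 117 in endothelium and 10.7, 9.80 and 11 in erythroid cells. Endoderm and mesoderm overlapped, and their difference (-0.89 ± 0.28, adjusted p = 0.0166) was lost without tagged sample 2 (adjusted p = 0.0617) or 3 (adjusted p = 0.203) and with DESeq2 (adjusted p = 0.0771). Erythroid cells minus endoderm came to -4.70 ± 0.32 (adjusted p = 6.86e-08). Slc22a18, a transporter-like membrane protein, was the third, with 15.7 to 19.8 CPM in endoderm and 0.848 to 3.50 in mesoderm. It had a single UMI in all of endothelium, so the pooled level in endoderm was 80.1 times that in endothelium (exact 95% interval for counting error 14.3 to 3169).

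Cd81, a tetraspanin of the cell surface that lies between Igf2 and Tssc4, followed another order. It stood at 512, 495 and 538 in endothelium, 163, 202 and 209 in mesoderm, 82.6, 97.5 and 91.9 in endoderm and 15.1, 24.5 and 24.2 in erythroid cells. No 2 classes overlapped, and mesoderm minus endothelium was -1.55 ± 0.10 (adjusted p = 1.17e-07). Tssc4 and Osbpl5 were lower in endoderm than in mesoderm, at 16.3 to 16.8 against 36.8 to 42.0 and at 0 to 0.448 against 2.97 to 3.50. Among the 7 maternally expressed members of this region, the class with the highest mean was thus endoderm for Cdkn1c, Slc22a18 and Phlda2, mesoderm for H19, Tssc4 and Osbpl5 and endothelium for Cd81.

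**Figure D4:**
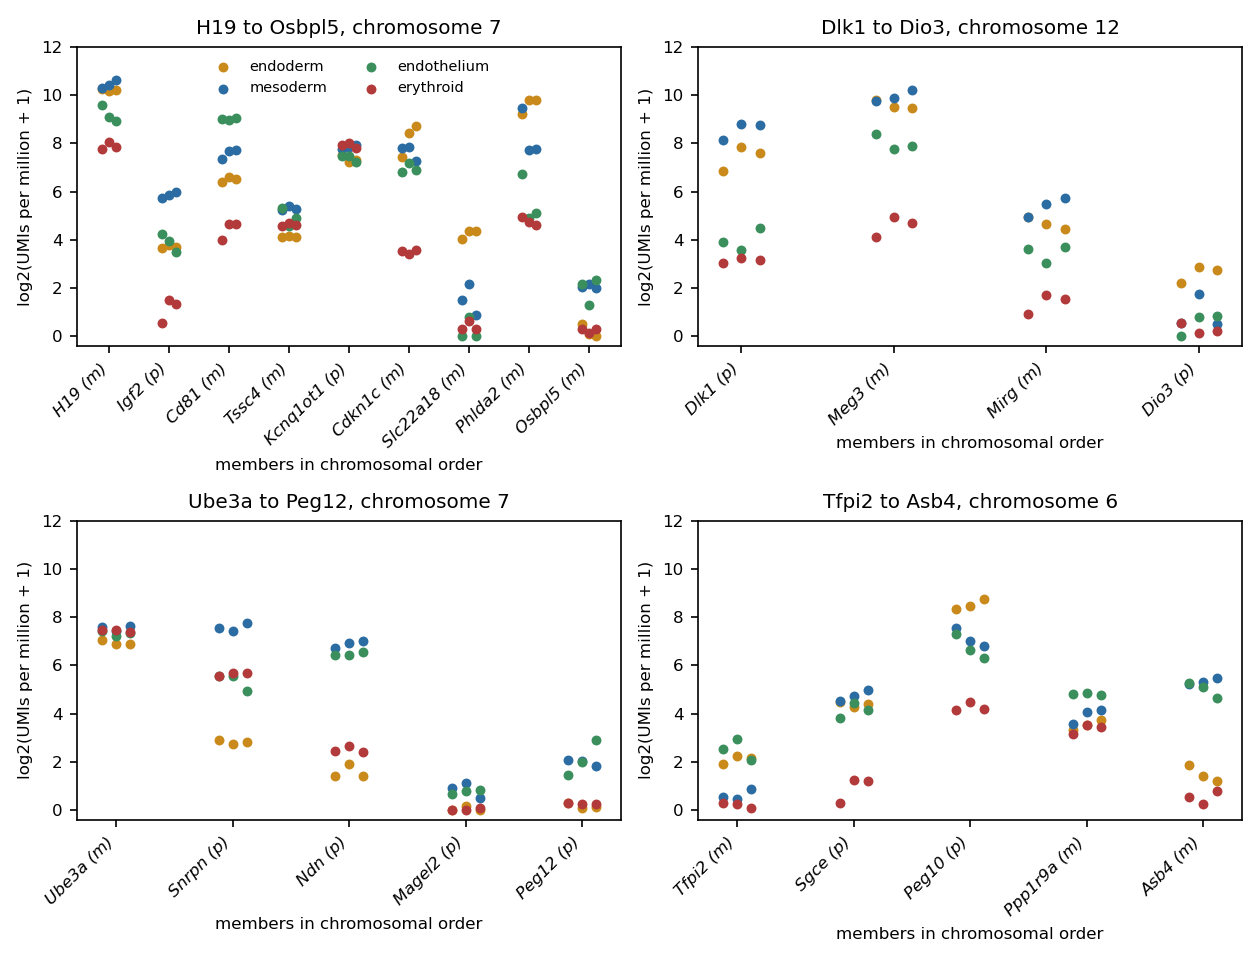
Level as log2(CPM + 1) (vertical axis) of members in chromosomal order (horizontal axis, p for paternally and m for maternally expressed) in 4 regions, with 3 points per class, 1 for each tagged sample. In the region of H19, Cdkn1c, Slc22a18 and Phlda2 have endoderm on top, Cd81 endothelium and Igf2 mesoderm, while in the region of Snrpn endoderm is at the bottom for Snrpn and Ndn.

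The region chr12:109452823-110281097 holds Dlk1, Meg3, Mirg and Dio3. Dlk1, a paternally expressed membrane protein related to Notch ligands, stood at 115, 232 and 196 in endoderm, 280, 443 and 433 in mesoderm, 14.2, 11 and 21.6 in endothelium and 7.18, 8.4 and 8.04 in erythroid cells. Mesoderm lay above endoderm in every sample (0.84 ± 0.24, adjusted p = 0.00872) and far above endothelium (4.52 ± 0.24, adjusted p = 1.93e-08). Meg3, the maternally expressed long noncoding RNA of the region, stood at 896, 739 and 715 in endoderm, 866, 932 and 1182 in mesoderm, 332, 218 and 235 in endothelium and 16.4, 30.3 and 25.3 in erythroid cells. Endoderm and mesoderm overlapped in Meg3 and did not differ past the limit (0.10 ± 0.11, adjusted p = 0.418), whereas erythroid cells minus endoderm came to -4.74 ± 0.16 (adjusted p = 1.64e-10). Endothelium thus kept Meg3 at a level well above erythroid cells (3.08 ± 0.20, adjusted p = 4.32e-08) while its Dlk1 was near theirs (0.63 ± 0.24, adjusted p = 0.0341, lost without tagged sample 1 at 0.0705 or 3 at 0.29).

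Mirg, the noncoding host of the 26 miRNAs, followed Meg3 at lower values: 29.7, 24.4 and 20.8 in endoderm, 29.6, 44.3 and 52.1 in mesoderm, 11.3, 7.35 and 12 in endothelium and 0.927, 2.33 and 1.97 in erythroid cells. Its mesoderm excess over endoderm (0.52 ± 0.18, adjusted p = 0.0284) was lost without tagged sample 2 (adjusted p = 0.142) or 3 (adjusted p = 0.353). Dio3, the deiodinase that inactivates thyroid hormone, was a paternally expressed exception, highest in endoderm at 3.58 to 6.31 and at most 2.33 elsewhere.

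The region chr7:59228750-62464510 holds Ube3a, Snrpn, Ndn, Magel2 and Peg12, and its paternally expressed members were lowest in endoderm or near 0. Snrpn, which encodes a splicing protein of small nuclear ribonucleoproteins, stood at 6.6, 5.75 and 6.1 in endoderm, 187, 173 and 213 in mesoderm, 46.9, 46.3 and 29.6 in endothelium and 46.6, 50.6 and 51.1 in erythroid cells. Mesoderm exceeded endoderm by 4.72 ± 0.12 (adjusted p = 1.82e-10) and erythroid cells exceeded it by 3.23 ± 0.10 (adjusted p = 1.53e-10), the largest of the 8 increases in erythroid cells. Of the exonic bases of Snrpn, 27.3% are shared on the same strand with Snurf and Gm38393.

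Ndn (necdin), a growth-restraining protein of the MAGE family, stood at 1.68, 2.77 and 1.63 in endoderm, 104, 119 and 129 in mesoderm, 86.1, 85.3 and 93.6 in endothelium and 4.40, 5.23 and 4.29 in erythroid cells. Mesoderm and endothelium did not differ past the limit (0.29 ± 0.12, adjusted p = 0.0756), and both lay at least 5.23 above endoderm in log2. Peg12 and the MAGE gene Magel2 were nearly silent, with 46 and 12 UMIs over all 4 classes. Ube3a, a ubiquitin ligase imprinted in neurons, ranged from 117 to 195 CPM: 131, 117 and 117 in endoderm, 194, 171 and 195 in mesoderm, 172, 146 and 160 in endothelium and 176, 175 and 168.5 in erythroid cells. Every endoderm sample lay below every sample of the other classes (mesoderm against endoderm 0.38 ± 0.08, adjusted p = 0.0019), and erythroid cells exceeded endoderm by 0.73 ± 0.06 (adjusted p = 4.73e-07).

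Peg3, Usp29 and Zim1 share chr7:6671269-6967219 and were all highest in mesoderm. Peg3, a paternally expressed zinc finger protein, stood at 408, 488 and 528 in endoderm, 833, 1027 and 1071 in mesoderm, 614, 346 and 422 in endothelium and 41.7, 40.3 and 42.2 in erythroid cells. Mesoderm did not overlap any other class (0.80 ± 0.11 over endoderm, adjusted p = 8.61e-05), endoderm and endothelium did overlap, and erythroid cells minus endoderm came to -3.30 ± 0.10 (adjusted p = 1.31e-10). Usp29, a ubiquitin protease gene that starts beside Peg3 on the other strand, took a similar order: 5.60, 5.82 and 6.32 in endoderm, 27.3, 26.1 and 26.7 in mesoderm, 18.4, 8.09 and 5.60 in endothelium and 2.32, 2.43 and 2.03 in erythroid cells. Its mesoderm excess was 1.93 ± 0.15 over endoderm (adjusted p = 7.61e-07). Its excess over endothelium (1.12 ± 0.31, adjusted p = 0.0135) was lost without tagged sample 2 (adjusted p = 0.114) or 3 (adjusted p = 0.111). Zim1, a maternally expressed zinc finger gene, stood at 10.6 to 12.4 in mesoderm and at most 3.20 in any other class (3.19 ± 0.28 over endoderm, adjusted p = 1.83e-06), so both parental classes of this region were highest in mesoderm.

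In the region chr6:3962595-5433022 the divergent pair Peg10 and Sgce, whose starts lie 99 bases apart, did not share an order. Peg10, a retrotransposon-derived gene required in the placenta, stood at 321, 353 and 427 in endoderm, 189, 129 and 110 in mesoderm, 157, 97.8 and 79.2 in endothelium and 16.7, 21.4 and 17.2 in erythroid cells. Endoderm lay above every other sample, and mesoderm minus endoderm was -1.60 ± 0.18 (adjusted p = 1.29e-05). Sgce (epsilon-sarcoglycan), the paternally expressed partner, stood at 21.3, 18.6 and 19.9 in endoderm, 22.3, 25.7 and 30.9 in mesoderm, 13.1, 20.6 and 16.8 in endothelium and 0.232, 1.40 and 1.31 in erythroid cells. Its difference between mesoderm and endoderm (0.16 ± 0.14) did not pass the limit (adjusted p = 0.332). In erythroid cells both genes were lower than in endoderm, with log2 differences of -3.84 for Sgce and -4.09 for Peg10.

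Asb4, a maternally expressed ubiquitin ligase adaptor of the same region, stood at 2.69, 1.66 and 1.31 in endoderm, 36.8, 38.9 and 43.7 in mesoderm, 38.0, 33.8 and 24.0 in endothelium and 0.463, 0.187 and 0.715 in erythroid cells. Mesoderm and endothelium overlapped (0.18 ± 0.18, adjusted p = 0.486) and both lay above the other two, mesoderm by 4.17 ± 0.21 over endoderm (adjusted p = 2.13e-08). Ppp1r9a (neurabin) was highest in endothelium, at 26.4 to 27.9 against 7.88 to 16.5 elsewhere. Tfpi2, a protease inhibitor, stood at 3.20 to 6.62 in endothelium and 2.80 to 3.67 in endoderm, without a difference past the limit (adjusted p = 0.34).

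Of the smaller regions, 3 pair members of opposite parental expression. Igf2r, the maternally expressed receptor that clears Igf2, stood at 89.0 to 105 in endoderm, 108 to 161 in mesoderm, 51.2 to 63.2 in endothelium and 14.6 to 16.0 in erythroid cells. Airn, the paternally expressed RNA that overlaps and silences it (chr17:12682406-12860136), ranged only from 4.41 to 20.9. Mesoderm exceeded endoderm in Airn (1.21 ± 0.23, adjusted p = 0.000773), while for Igf2r this difference did not pass the limit (0.315 ± 0.133, adjusted p = 0.0577). In endothelium against endoderm the pair was opposed, with Igf2r lower (-0.8 ± 0.118, adjusted p = 6.48e-05) and Airn higher (0.766 ± 0.264, adjusted p = 0.0231). That Airn call was lost without tagged sample 2 (adjusted p = 0.19) or 3 (adjusted p = 0.0842). Grb10, an adaptor that restrains growth factor signalling, and Ddc, which makes dopamine and serotonin, took opposite orders in chr11:11814101-12038683. Grb10 stood at 21.6 to 29.0 in endoderm and 94.5 to 144 in the other 3 classes.

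Ddc stood at 47.7, 56.7 and 51.3 in endoderm, 6.37, 5.45 and 2.12 in mesoderm, 2.97, 2.21 and 2.40 in endothelium and 2.78, 5.88 and 3.40 in erythroid cells. Endoderm was the one class in which Ddc was high and Grb10 low (erythroid minus endoderm: Ddc -3.42 ± 0.19, Grb10 2.32 ± 0.11). H13, a signal peptide peptidase, was lowest in erythroid cells at 19.6 to 22.0, whereas Mcts2, a retrogene inside H13, was highest there at 57.2 to 63.1, above the other classes at 31.6 to 48.5. Mcts2 has a near-identical source gene, so its counts are uncertain, as are those of the splicing factor retrogene Zrsr1 (2.22 to 20 over all sums).

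Of the members that lie alone, Mest was high in both mesoderm and endothelium. It encodes a hydrolase-like protein long used as a marker of mesoderm, at chr6:30723547-30748465. Mest stood at 18.4, 24.4 and 15.7 CPM in endoderm, 956, 1156 and 1216 in mesoderm, 1369, 1346 and 1316 in endothelium and 6.72, 25.3 and 16.0 in erythroid cells. Endothelium exceeded endoderm by 5.96 ± 0.14 (adjusted p = 5.13e-12) and mesoderm exceeded it by 5.56 ± 0.16 (adjusted p = 4.49e-10), while erythroid cells and endoderm overlapped (0.02 ± 0.30, adjusted p = 0.963). Endothelium and mesoderm did not overlap either, but their difference (mesoderm minus endothelium -0.40 ± 0.08, adjusted p = 0.00168) was lost when all 4 classes shared 1 fit (adjusted p = 0.137). The low values in endoderm and erythroid cells stand beside counts of other classes' markers, none of them in the class rule. The 10 mesoderm markers summed to 55.6 to 61.1 CPM in endoderm and 5.33 to 10.5 in erythroid cells, against 656 to 1021 in mesoderm. The 10 endothelium markers summed to 36.9 to 50.7 in endoderm and 74.4 to 77.0 in erythroid cells, against 1622 to 1836 in endothelium. The 12 endoderm markers summed to 366 to 744 in the other 3 classes against 19740 to 25586 in endoderm. The part of such stray counts in low member levels was not tested.

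**Figure D5:**
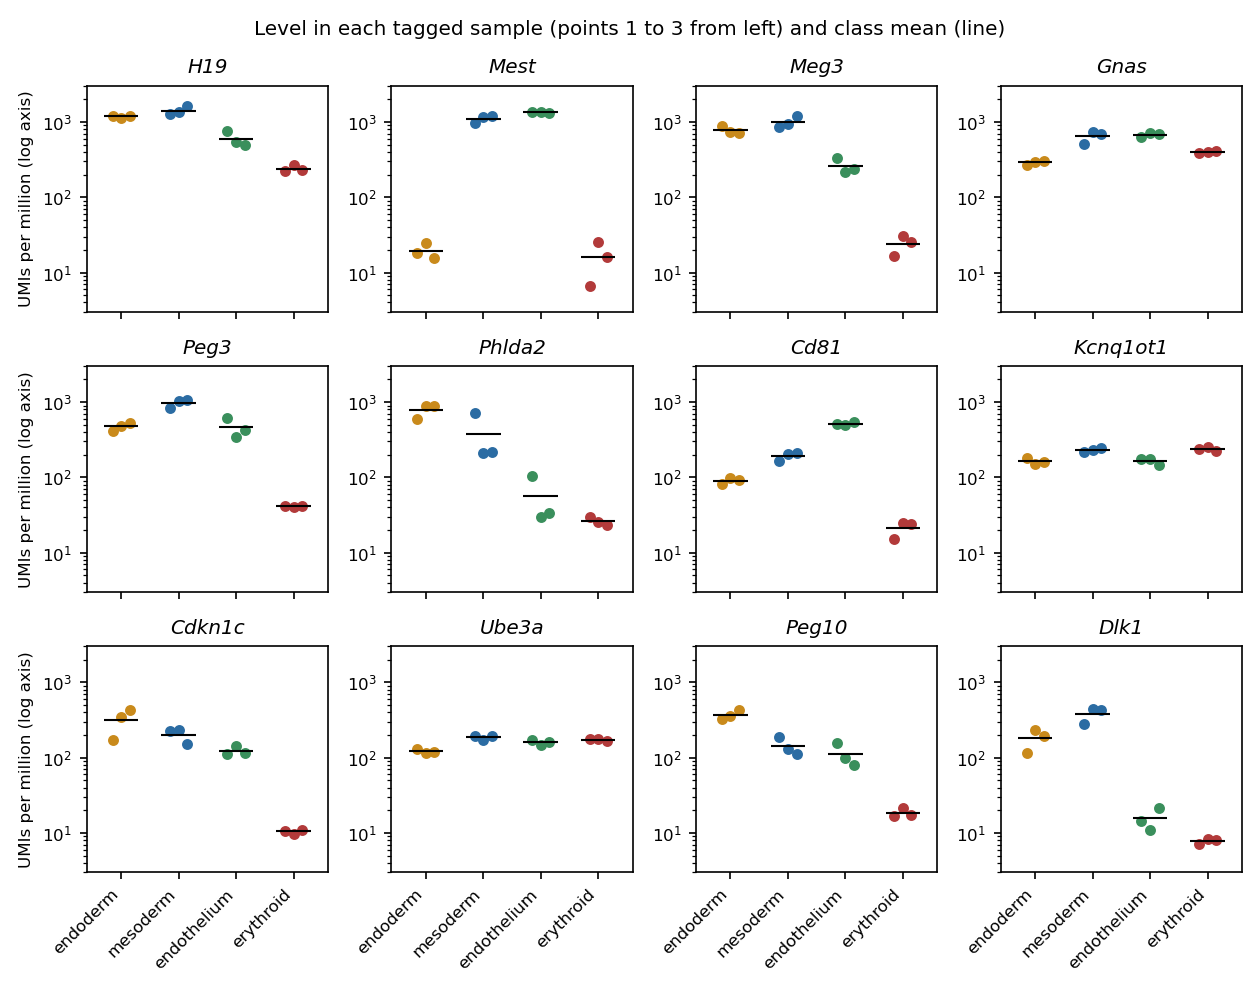
CPM (vertical log axis) of the 12 most abundant members by class (horizontal axis), with points for tagged samples 1 to 3 from left to right and a line for the class mean. Mest spans 6.72 in an erythroid sample to 1369 in an endothelium sample, whereas Kcnq1ot1 stays between 148 and 256.

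Nnat (neuronatin), a small membrane proteolipid gene inside Blcap, was the member with the largest excess of mesoderm over endoderm. It stood at 4.81, 6.79 and 3.05 in endoderm, 271, 492 and 515 in mesoderm, 8.31, 6.62 and 17.6 in endothelium and 3.94, 3.92 and 6.2 in erythroid cells. Mesoderm exceeded endoderm by 6.13 ± 0.29 (adjusted p = 1.15e-08) and endothelium by 5.21 ± 0.32 (adjusted p = 7.76e-08), and none of the 3 comparisons among the other classes passed the limit (adjusted p = 0.0576, 0.0756 and 0.582). Plagl1, a zinc finger transcription factor, was graded: 2.24, 4.16 and 5.56 in endoderm, 27.3, 58.4 and 56.0 in mesoderm, 22.0, 12.5 and 25.6 in endothelium and 0.463, 1.03 and 0.715 in erythroid cells. All of its 6 comparisons passed, mesoderm against endoderm at 3.31 ± 0.32 (adjusted p = 3.2e-06), but the excess of mesoderm over endothelium was lost without tagged sample 2 (adjusted p = 0.169) or 3 (adjusted p = 0.0657).

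Dcn (decorin), a proteoglycan of connective tissue, stood at 8.19, 24.5 and 35.2 in mesoderm and at most 0.624 elsewhere, with no UMI in endothelium. Its mesoderm level was at least 32.9-fold higher than that of endothelium, taking 3 counts over the class as the limit for 0. Like Dcn, the sum of 5 maternal decidua markers was highest in mesoderm (127, 196 and 178, at most 3.20 in any other class). Across tagged samples this sum did not follow Dcn throughout, falling from 196 to 178 where Dcn rose from 24.5 to 35.2. Nearly all of the sum was Cryab, at 124, 192 and 175, while Prl8a2 and Prl6a1 were at 0 in mesoderm and Pgr had 1 UMI there. The part of these markers in the Dcn level was not tested.

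Gnas, which encodes the stimulatory G protein alpha subunit, stood at 266, 296 and 305 in endoderm, 509, 728 and 697 in mesoderm, 629, 713 and 688 in endothelium and 392, 399 and 406 in erythroid cells. Endoderm was the lowest class (mesoderm 0.91 ± 0.12 higher, adjusted p = 4.08e-05), and Gnas was the most abundant member of every erythroid sum. Its locus makes several imprinted transcripts that the counts of 1 gene row do not separate.

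Higher in endoderm than in every other class were 4 of the 11 members that lie alone. Over all members tested the share was 27.0%, against 20.7% of all genes. These 4 are paternally expressed, but so are all members that lie alone except Gnas and Dcn. Sfmbt2, a Polycomb-group protein needed in trophoblast, stood at 75.4, 54.0 and 46.3 in endoderm, 47.3, 15.2 and 17.8 in mesoderm, 12.5, 5.15 and 3.20 in endothelium and 6.95, 5.51 and 4.59 in erythroid cells. As for Phlda2, tagged sample 1 was the highest in mesoderm, where the cells with Elf5, Tfap2c or Rhox9 held Sfmbt2 at 210, 181 and 315 and the other cells at 7.37, 4.96 and 2.67. Mesoderm minus endoderm was -1.39 ± 0.32 with these cells (adjusted p = 0.00292) and -3.78 ± 0.29 without them (adjusted p = 2.27e-07). Against erythroid cells the mesoderm excess of 1.88 ± 0.38 (adjusted p = 0.00081) turned to -0.44 ± 0.31 (adjusted p = 0.216) without them, a class in which those cells numbered 16.

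Inpp5f, a phosphoinositide phosphatase, stood at 106 to 115 in endoderm and at most 42.4 elsewhere, and the kinase regulator Impact at 67.3 to 80.0 in endoderm and at most 59.8 elsewhere. Gab1, a docking protein of receptor tyrosine kinases, stood at 38.5 to 42.5 in endoderm and was the only member lowest in mesoderm, at 9.75 to 16.8. Its excess in endoderm over endothelium was small (endothelium minus endoderm -0.37 ± 0.14, adjusted p = 0.0358) and was lost without any 1 of the tagged samples (adjusted p = 0.0596, 0.12 and 0.176). The remaining single member, Nap1l5, had 14 UMIs over all 4 classes.

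Single cells showed whether these levels were spread over a class. To allow for depth, each cell was thinned to 20000 UMIs, which left 511 endoderm, 174 mesoderm, 84 endothelium and 616 erythroid cells, and 48, 25, 31 and 13 were too shallow. Mest had a UMI in 96.6% of mesoderm and 98.8% of endothelium cells, against 20.4% of endoderm and 18.2% of erythroid cells (97.0%, 100%, 42.6% and 35.8% before thinning). Nnat was found in 89.1% of mesoderm cells and in 7.44% to 15.5% of the cells of the other classes (90.5% and 15.2% to 19.1% before thinning). Mest and Nnat were therefore present in most mesoderm cells rather than in a few.

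Dcn had a UMI in 27.0% of thinned mesoderm cells (41.7% before thinning) and in none of 84 endothelium cells, which allows a share of up to 3.57% with a UMI after thinning and leaves the share expressing Dcn unknown. The spread of Phlda2 differed between classes. Over cells, a low, middle and high value (the 10th, 50th and 90th percentile) were 25.8, 114 and 1056 CPM in mesoderm and 360, 760 and 1334 in endoderm. For H19 these percentiles were 536, 1265 and 2352 in mesoderm and 646, 1074 and 1814 in endoderm. Cells of a class share their library, and these shares and percentiles are descriptions without a test.

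Genes that set or keep imprints were read from a list of 29, including DNA methyltransferases and ZFP57 partners. In mesoderm against endoderm, 15 were higher and 5 lower of 26 tested (57.7% and 19.2%, against 30.6% and 33.2% of all genes), with a median of 0.38. Dnmt1, which copies methylation at replication, was 0.71 ± 0.09 higher (adjusted p = 2.49e-05), and Zfp57 was 0.90 ± 0.25 higher (adjusted p = 0.00737). The methyltransferases that set new methylation were lower, Dnmt3a at -1.23 ± 0.18 (adjusted p = 0.000102) and Dnmt3b at -1.02 ± 0.15 (adjusted p = 0.000118). The chromatin proteins Arid4a (0.89 ± 0.15) and Arid4b (0.82 ± 0.09) were higher. In erythroid cells against endoderm, 16 were higher and 8 lower of 25 (64.0% and 32.0%, against 36.1% and 41.8% of all genes). In mesoderm against endothelium 4 were higher and 3 lower of 23 (17.4% and 13%), near the 15.9% and 19.5% of all genes.

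Of 37 further imprinted genes, 35 had a row, and most were scarcely expressed: 18 could be tested in mesoderm against endoderm. Of these 6 were higher and 5 lower (33.3% and 27.8%), near the 30.6% and 33.2% of all genes, with a median of 0.19. Slc38a4, an amino acid transporter, was 4.38 ± 0.25 higher in mesoderm (adjusted p = 5.04e-08), and Zdbf2 3.65 ± 0.19 higher (adjusted p = 2.36e-08). Jade1 was lower (-1.99 ± 0.10, adjusted p = 1.25e-08), at a mean of 51.8 CPM against 174 in endoderm, and Pon2 differed by -0.64 ± 0.13 (adjusted p = 0.00139).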

How the data were processed

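The 45 genes, their split by parental expression and all lists were chosen with earlier results of these data known. The authors deposited raw UMI counts per gene and cell for 3 tagged samples, with Cell Ranger 6.1.2 named per the file headers, and the submitters' processing notes list GRCm38 and mm10. Annotation, strand use and the assignment of cells to tags are given by no source used here. Of 30970 gene identifiers 30900 matched GENCODE M21. Raw counts of the cells in each class were added up within a tagged sample, giving 12 sums. Levels are CPM, UMIs per 1000000 of a sum, and differences and their SE come from edgeR 4.0.16 (TMM, filterByExpr, quasi-likelihood, two-sided, adjusted p under 0.05 over all genes). The fit was first run on simulated counts in which far fewer genes differed than here. That run therefore cannot show how the fit and its scaling behave where this many genes differ. Classes of 1 tagged sample share their cells' source, so numbers pair the sums. Same-numbered sums deviated together only weakly (correlations 0.006 to 0.161). Values in every sample are given for the 12 most abundant members and for others past the limit with a log2 difference of at least 3 and at least 20 CPM, 24 in all, and other members by range. From the other gene lists, the leading 2 in each direction were taken, and Dnmt1 and Zfp57 were added after their values were seen. Alternatives were DESeq2 1.42.0, other scalings, filters, gates and thinning, a replicate block, Scrublet (21, 30 and 38 cells called) and leaving out each sample. Doublets were otherwise removed only as cells of 2 classes. Intervals and limits for 0 cover counting error only.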

Additional observations from a re-analysis of the deposited data

How the results depend on the processing

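Over 15 alternatives, the number of members called stayed within 1.5 times the count reported in all 6 comparisons. Without 1 tagged sample it ranged from 30 to 35 in mesoderm against endoderm, 26 to 29 in endothelium against endoderm, 32 to 33 in erythroid cells against endoderm, 17 to 24 in mesoderm against endothelium, 31 to 35 in mesoderm against erythroid cells and 24 to 27 in endothelium against erythroid cells. With the replicate block, which pairs the classes of a tagged sample, the counts were 35, 29, 33, 24, 35 and 28, and no member call was lost. Of 179 member calls, 149 kept direction and call in every alternative that gave a value, 30 lost the call under at least 1, and 5 of these turned. With gate thresholds doubled, Cdkn1c in mesoderm against endothelium went to -0.033, Sfmbt2 in mesoderm against erythroid cells to -0.69 and Phlda2 in endothelium against erythroid cells to -0.24. Without cells with Elf5, Tfap2c and Rhox9, Sfmbt2 in mesoderm against erythroid cells went to -0.44, and without Scrublet doublets Phlda2 in endothelium against erythroid cells to -0.005. With library size scaling, Grb10 and Ube3a in mesoderm against erythroid cells went to 0.013 and 0.113. The cause of these changes was not tested. Depth limits some calls: with sums thinned to the smallest, 24, 20 and 21 members were called in endothelium against endoderm, mesoderm against endothelium and endothelium against erythroid cells.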

Other observations

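Cells that met no class threshold (78, 60 and 50 cells in tagged samples 1, 2 and 3) differed between tagged samples in several imprinted genes. Phlda2, the placental growth restrainer, stood at 1332, 884 and 211 CPM in the summed UMIs of these cells. Peg10 stood at 264, 176 and 49.7, Sfmbt2 at 88.6, 56.7 and 17.9 and Cdkn1c at 145, 291 and 38, so tagged sample 3 was the lowest for all 4 of these genes. H19 stood at 454, 330 and 226, whereas Gnas (297, 379 and 443) and Kcnq1ot1 (168, 191 and 241) were highest in tagged sample 3. In the same cells the 12 trophoblast markers summed to 349, 299 and 128, the 7 parietal endoderm markers to 160, 3763 and 716 and the 10 erythroid markers to 599, 486 and 953, the last highest in tagged sample 3. The part of these cell types in these member levels was not tested.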
